A study of Mus musculus with 75 samples.

Results

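Sprouty and Spred proteins are feedback inhibitors of receptor tyrosine kinase signalling, and the PEA3-group ETV factors are transcription factors whose genes are switched on by the same signalling. The genes described here were the Sprouty genes Spry1, Spry2 and Spry4, the Spred genes Spred1, Spred2 and Spred3, and the ETV genes Etv4 and Etv5. They were taken by symbol from the count tables of mouse embryonic fibroblasts, so they are 8 of 45706 gene entries. The rule uses names alone, although the set was put forward with earlier results of these data known. The cells were C57BL/6 fibroblasts lacking p53, c-Rel and RelA (p53-/-, crel-/- and rela-/-), and every group shares these 3 deletions. They had been transduced with pBABE-puro retrovirus that was empty (EV) or carried a mutant RelA or wild-type RelA (RelA-WT). The mutants were RelA-dTAD, RelA-dTA1, RelA-DB, RelA-dCterm, RelA-TA2_CI, RelA-TA2_S467A, RelA-TA2_CI_S467A and versions of the CI and CI_S467A mutants with dTA1 added. The labels give these names without spelling out the mutations. Cells were starved overnight in 0.5% bovine calf serum and then given TNF at 10 ng/ml for 0.5, 1, 3 or 8 h, with the 0 h cells collected without it. EV, RelA-dTAD, RelA-dTA1 and RelA-WT had 2 libraries at each time, 1 in each of 2 count tables (set 1, replicate 1, and set 2, replicate 2), and the other 7 constructs had 1. The samples used here include no cells left without TNF until the later times, so each change against 0 h holds the effect of TNF together with that of time.

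Growth factors that engage receptor tyrosine kinases activate Ras, Raf, MEK and ERK in turn. ERK activity in turn raises the transcription of genes that restrain the pathway, among them the Sprouty, Spred and dual-specificity phosphatase genes, and of Etv4 and Etv5. Sprouty proteins act between the receptor and Raf, Spred proteins bring the Ras GTPase-activating protein neurofibromin to the membrane, and ETV4 and ETV5 bind DNA at sites with an ETS core. TNF reaches gene expression mainly through NF-kB, of which RelA is the main activating subunit in fibroblasts, and through MAP kinases.

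Set 1 held 30 libraries with 4422396 to 6915919 counted reads each, and set 2 held 45 libraries with 10440202 to 22908738. All 8 fibroblast markers were at 1 CPM (counts scaled to a common library size by TMM) or more, with a summed level of 34900 to 54800 CPM, whereas 1 of 5 macrophage, 2 of 4 endothelial and 2 of 4 epithelial markers reached that level, with sums of 1.6 to 5.81, 30 to 60.8 and 2.4 to 13.7 CPM. The restored gene, Rela, was at 16.1 ± 0.846 CPM in EV cells, 1459 ± 490 CPM in RelA-dTAD cells, 1155 ± 432 CPM in RelA-dTA1 cells and 1308 ± 234 CPM in RelA-WT cells at 0 h (SD, n = 2 each). At 8 h Rela reached 5312 ± 1987 CPM in RelA-dTAD cells and 1616 ± 219 CPM in RelA-WT cells, and the part of this rise in the results was not tested. Nfkbia, the NF-kB target that encodes IkBα, was at 30.8 CPM in EV cells, 48.7 CPM in RelA-dTAD cells, 447 CPM in RelA-dTA1 cells and 1018 CPM in RelA-WT cells after 1 h of TNF. Nothing in the labels ties the 2 libraries of a group to separate cultures, and the p-values below may therefore rest on technical spread alone. These are bulk libraries, in which fewer cells of a kind and less RNA per cell cannot be told apart.

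The promoters of Spry1 and Spry2, which moved early and late, and of Spred1, a Spred gene with small 8 h changes, are shown as the 250 bases before the RefSeq start (GRCm38.p6), with both strands of the ETS core GGAA in capitals, since ETV4 and ETV5 bind sites with this core. Spry1 lies on the plus strand (chr3:37639697-37639946), Spry2 on the minus strand (chr14:105896820-105897069) and Spred1 on the plus strand (chr2:117120821-117121070).
Spry1: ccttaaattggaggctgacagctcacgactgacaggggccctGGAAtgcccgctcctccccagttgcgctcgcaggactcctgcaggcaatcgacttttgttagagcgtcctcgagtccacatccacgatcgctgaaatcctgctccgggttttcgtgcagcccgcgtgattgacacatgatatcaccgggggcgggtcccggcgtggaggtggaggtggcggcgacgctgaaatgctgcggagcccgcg
Spry2: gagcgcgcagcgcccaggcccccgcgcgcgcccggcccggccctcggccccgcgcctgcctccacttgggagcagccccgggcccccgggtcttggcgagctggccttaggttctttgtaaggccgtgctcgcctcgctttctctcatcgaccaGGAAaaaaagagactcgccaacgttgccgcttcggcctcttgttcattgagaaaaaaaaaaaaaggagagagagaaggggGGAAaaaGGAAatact
Spred1: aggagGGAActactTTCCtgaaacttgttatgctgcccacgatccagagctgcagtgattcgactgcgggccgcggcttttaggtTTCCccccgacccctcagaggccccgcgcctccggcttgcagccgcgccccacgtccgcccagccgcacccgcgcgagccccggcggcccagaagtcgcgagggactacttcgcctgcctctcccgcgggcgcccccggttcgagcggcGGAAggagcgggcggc
The core occurred 1 time before Spry1, 3 times before Spry2 and 4 times before Spred1. In the window from 250 bases before to 50 after the start, all 6 members with an entry held the core on one strand or the other in at least 1 entry. So did 96% of the 32851 mouse promoters searched, a share of promoters and not of genes. A further Etv5 entry (chr16:22439521-22439820) held the core 0 times. The short cyclic AMP element TGACG, which the full element contains, was found in Spred2 alone, against 20.8% of all promoters. The AP-1 site TGANTCA, the full cyclic AMP element TGACGTCA, the NF-kB motif and the SRF CArG box were found in none of the 6, against 7.81%, 1.79%, 8.46% and 1.63% of all promoters. Spry4 and Etv4 had no promoter entry and were not searched, so these absences do not cover them. Matches are letters in these windows only and say nothing of binding elsewhere.

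In the annotation of the mm10 build (GENCODE M21) the genes are spread over 7 chromosomes. The Sprouty genes lie at chr3:37639947-37644598 on the plus strand (Spry1), chr14:105891947-105896819 on the minus strand (Spry2) and chr18:38586247-38601415 on the minus strand (Spry4). The Spred genes lie at chr2:117121374-117182279 on the plus strand (Spred1), chr11:19924375-20024026 on the plus strand (Spred2) and chr7:29158829-29170411 on the minus strand (Spred3). The ETV genes, both on the minus strand, lie at chr11:101769742-101785371 (Etv4) and chr16:22381309-22439719 (Etv5). Spred3 shares 202 of its 6218 exon bases with the antisense gene Ggn, and the strand setting of the counting was not given, so reads of the overlap cannot be told apart.

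Before TNF all 8 genes were expressed, and no difference from RelA-WT was detected in EV, RelA-dTAD or RelA-dTA1 cells. Other pairs of constructs were not tested at 0 h. Per kilobase of exon, averaged over the 8 libraries of the 4 replicated constructs at 0 h, Spry2 stood at 26.7 ± 7.52 CPM per kb and Spred1 at 23.2 ± 0.838 (SD). Spred2 at 13.2 ± 1.08 and Spry1 at 11 ± 2.66 CPM per kb came next, followed by Etv5 at 8.03 ± 1.35. Spry4 at 3.24 ± 0.312, Spred3 at 2.74 ± 0.586 and Etv4 at 2.57 ± 0.27 CPM per kb were lowest. Neighbours in this order overlapped in their ranges over libraries, except Spred1 with Spred2 and Etv5 with Spry4. Levels also differed between the sets: over all constructs Spry2 was at 56.6 to 75.6 CPM in set 1 and 36.5 to 45.4 CPM in set 2 at 0 h. None of the 8 passed edgeR's quasi-likelihood test against RelA-WT at 0 h in EV, RelA-dTAD or RelA-dTA1 cells, at an adjusted p of 0.05 (Benjamini-Hochberg over 13665 genes) or unadjusted, and DESeq2 called 0 as well. With the set as a block the unadjusted count was 2 in EV cells and 1 in RelA-dTAD cells, and the adjusted count stayed at 0. All genes tested passed lower in EV cells in 0.563% of cases and lower in RelA-dTAD cells in 0.0293%.

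**Figure D1:**
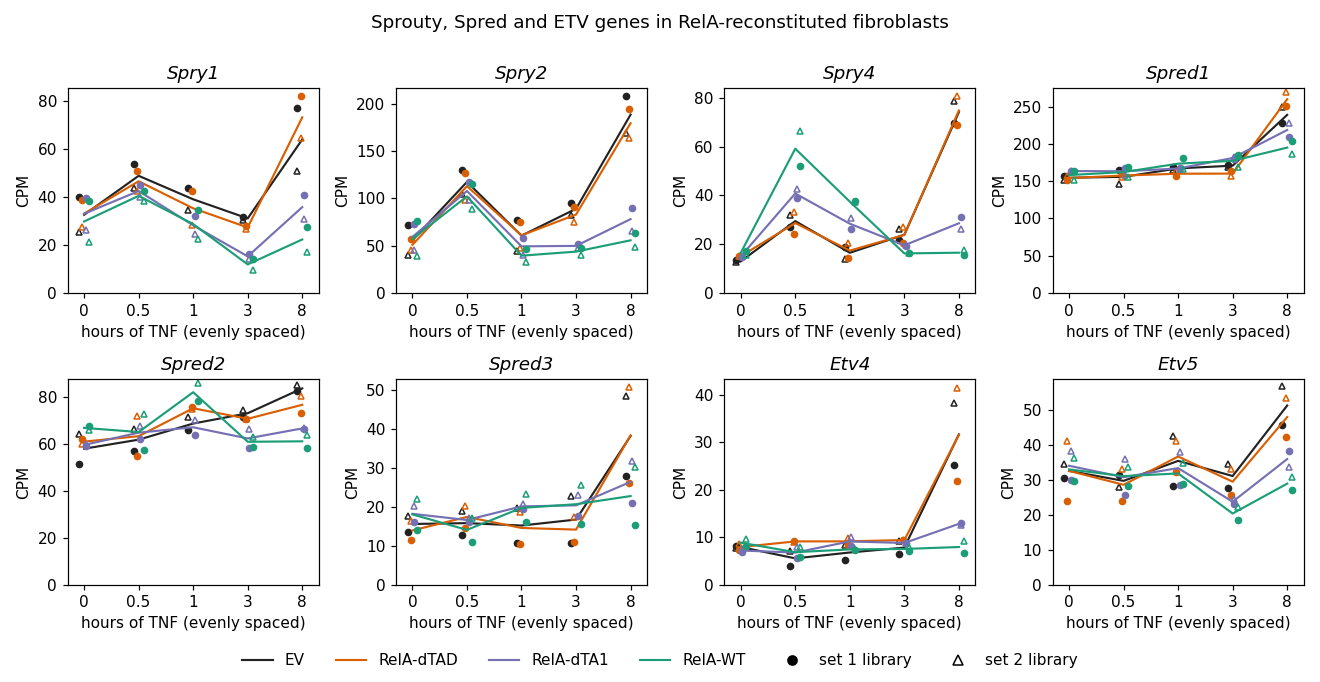
CPM of each gene (linear axis from 0) at 0, 0.5, 1, 3 and 8 h of TNF, evenly spaced, in EV, RelA-dTAD, RelA-dTA1 and RelA-WT cells; filled circles are set 1 libraries, open triangles set 2 libraries and lines the mean of the 2. Spry4 peaks at 0.5 h in RelA-WT cells, at 52.0 and 66.3 CPM, and at 8 h in EV cells, at 69.6 and 78.8 CPM.

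Spry4, a Sprouty gene known as a sensitive readout of ERK activity, had 2 phases, and the constructs differed in opposite directions in them. In EV cells it was at 13.4 and 12.5 CPM at 0 h, 27.0 and 31.9 CPM at 0.5 h, 18.9 and 14.1 CPM at 1 h, 21.6 and 26.2 CPM at 3 h and 69.6 and 78.8 CPM at 8 h (set 1 and set 2). In RelA-dTAD cells it was at 15.0 and 15.2 CPM at 0 h, 24.2 and 33.1 CPM at 0.5 h, 14.3 and 20.5 CPM at 1 h, 20.4 and 27.2 CPM at 3 h and 69.0 and 80.7 CPM at 8 h. Both constructs thus had a low early peak and a high late level. In RelA-dTA1 cells Spry4 was at 14.9 and 15.0 CPM at 0 h, 39.0 and 42.6 CPM at 0.5 h, 26.1 and 30.7 CPM at 1 h, 19.3 and 19.8 CPM at 3 h and 31.0 and 26.1 CPM at 8 h. In RelA-WT cells it was at 17.3 and 15.6 CPM at 0 h, 52.0 and 66.3 CPM at 0.5 h, 37.7 and 37.2 CPM at 1 h, 16.2 and 16.2 CPM at 3 h and 15.6 and 17.4 CPM at 8 h. The order of the constructs at 0.5 h was turned round at 8 h, and at both times the EV and RelA-dTAD libraries did not overlap those of RelA-WT.

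At 0.5 h Spry4 rose in all 4 constructs, on the log2 scale by 1.21 ± 0.18 in EV cells, 0.94 ± 0.17 in RelA-dTAD cells, 1.46 ± 0.17 in RelA-dTA1 cells and 1.87 ± 0.18 in RelA-WT cells (SE; edgeR adjusted p = 0.000288, 0.00614, 7.26e-06 and 9.27e-08). Without the set as a block Spry4 was the one member called at that time, against 0.402%, 0.439%, 0.615% and 0.776% of all genes called higher in EV, RelA-dTAD, RelA-dTA1 and RelA-WT cells. Where a replicate is left out, the arm keeps 1 library, which is taken to vary as the other groups do. Without the set 2 libraries (replicate 2) of the construct the rise was 1.03 with adjusted p = 0.297 in EV cells and 0.68 with adjusted p = 0.889 in RelA-dTAD cells. Its level at 0.5 h was 1.02 lower in EV cells (adjusted p = 0.00073) and 1.04 lower in RelA-dTAD cells (adjusted p = 0.00103) than in RelA-WT cells, and 1.22 and 1.09 lower at 1 h (adjusted p = 6.47e-05 and 0.000235). Without RelA-WT replicate 2 the difference at 0.5 h was 0.84 lower in EV cells and 0.86 lower in RelA-dTAD cells, with adjusted p = 0.0861 and 0.192. All genes passed lower than RelA-WT in 1.08% of cases for EV and 0.366% for RelA-dTAD at 0.5 h, and in 2.96% and 1.82% at 1 h. The difference of the change itself did not pass in edgeR or DESeq2: at 0.5 h it was -0.66 ± 0.25 for EV minus RelA-WT (adjusted p = 0.9999) and -0.93 ± 0.25 for RelA-dTAD minus RelA-WT (0.571), and at 1 h it was -0.86 ± 0.26 (0.227) and -0.98 ± 0.25 (0.0898). Of all genes 0.0805% were called lower in each comparison at 0.5 h, and 0.578% and 0.6% at 1 h. Spry4 had an unadjusted p under 0.05 in all 4. With the set as a block it passed for RelA-dTAD at 0.5 h (-0.92 ± 0.20, adjusted p = 0.0346, with 0.198% of all genes called lower) and for EV and RelA-dTAD at 1 h (-0.91 and -0.94, adjusted p = 0.0273 and 0.00869, with 1.27% and 1.43%), but not for EV at 0.5 h (adjusted p = 0.779). With no filter the RelA-dTAD difference at 1 h passed (adjusted p = 0.0364). At 1 h Spry4 was still up by 0.94 ± 0.17 in RelA-dTA1 cells (adjusted p = 0.00191) and by 1.2 ± 0.18 in RelA-WT cells (adjusted p = 5.57e-05), where 1.41% and 2.55% of all genes were called higher. In RelA-dTA1 cells this call was lost without replicate 1 (1.03, adjusted p = 0.0727) and without replicate 2 (0.81, adjusted p = 0.434).

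**Figure D2:**
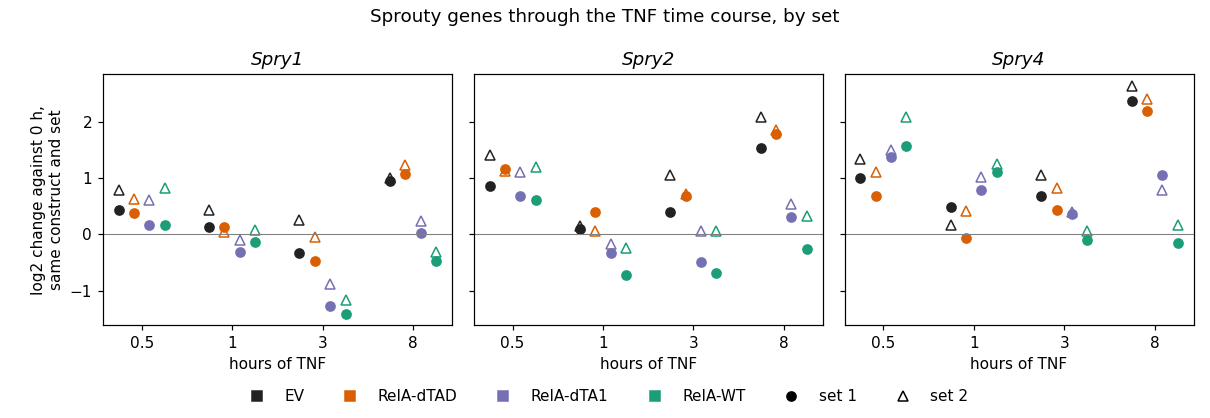
Log2 change of Spry1, Spry2 and Spry4 against 0 h of the same construct and set, at 0.5, 1, 3 and 8 h of TNF; colours are constructs, filled circles set 1 and open triangles set 2, 1 library each. At 8 h Spry4 changed by 2.36 and 2.64 in EV cells, and at 0.5 h all values shown for the 3 genes are above 0.

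At 8 h Spry4 was up by 2.56 ± 0.18 in EV cells (SE; edgeR adjusted p = 5.79e-11), 2.32 ± 0.18 in RelA-dTAD cells (2.45e-10) and 0.93 ± 0.18 in RelA-dTA1 cells (0.000214), and it changed by 0.03 ± 0.18 in RelA-WT cells (0.939). The change in EV cells exceeded that in RelA-WT cells by 2.53 ± 0.25 (adjusted p = 1.68e-07) and the change in RelA-dTAD cells exceeded it by 2.29 ± 0.25 (adjusted p = 1.18e-06). These were the largest differences among the 8 genes in both comparisons, and they held without any 1 replicate of the constructs compared. At 3 h Spry4 was up by 0.90 ± 0.18 in EV cells (adjusted p = 0.00445) and 0.67 ± 0.18 in RelA-dTAD cells (0.0352), where 3.02% and 2.28% of all genes were called higher. Leaving out either replicate of EV gave 1.07 and 0.70 (adjusted p = 0.0573 and 0.315), and either replicate of RelA-dTAD 0.84 and 0.44 (0.0837 and 0.586).

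Spry2, whose product binds Cbl and Grb2, rose late in EV and RelA-dTAD cells, and early in all 4 constructs where the set was a block or no filter was used. At 0.5 h it was at 130 and 105 CPM in EV cells against 71.8 and 39.6 CPM at 0 h, and in RelA-WT cells at 115 and 89.1 CPM against 75.6 and 38.6 CPM. The 0.5 h libraries of both constructs lay above their 0 h libraries. The early change of 0.86 to 1.15 over the 4 constructs did not pass in the filtered fit without the block. It passed in all 4 with no filter on low counts (0.85 to 1.15, the highest edgeR adjusted p = 3.13e-07). The sizes were nearly those of the filtered fit, so the lower p-values come from a smaller estimated spread. That fit does not use the set either. With the set as a block it was 1.14 ± 0.15 in EV cells, 1.14 ± 0.14 in RelA-dTAD cells, 0.93 ± 0.14 in RelA-dTA1 cells and 0.91 ± 0.15 in RelA-WT cells, and all 4 passed (edgeR adjusted p = 2.1e-05, 1.88e-05, 0.0002 and 0.000392), where 0.703%, 0.834%, 1.02% and 1.13% of all genes did so. At 8 h Spry2 was at 208 and 169 CPM in EV cells, 195 and 164 CPM in RelA-dTAD cells, 90.3 and 65.8 CPM in RelA-dTA1 cells and 63.1 and 48.2 CPM in RelA-WT cells. The EV and RelA-dTAD libraries stood apart from the other 4. Against 0 h it rose by 1.81 ± 0.34 in EV cells (adjusted p = 0.000107) and 1.83 ± 0.34 in RelA-dTAD cells (0.000106). It changed by 0.42 ± 0.34 in RelA-dTA1 cells (adjusted p = 0.369, and 0.0148 with the block) and by -0.02 ± 0.34 in RelA-WT cells (0.975). The 8 h change exceeded that in RelA-WT cells by 1.84 ± 0.48 in EV cells (adjusted p = 0.00911) and 1.85 ± 0.48 in RelA-dTAD cells (0.0117). With a replicate left out the EV difference was 1.60 without EV replicate 2 and 1.46 without RelA-WT replicate 1 (adjusted p = 0.0739 and 0.103). The RelA-dTAD difference was 1.88 and 1.79 without either RelA-dTAD replicate and 1.49 without RelA-WT replicate 1 (adjusted p = 0.0812, 0.0846 and 0.121).

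Spry1, a Sprouty gene studied most in kidney and muscle, was the one member called lower at 3 h in the fit without the block, in RelA-dTA1 and RelA-WT cells. At 3 h it was at 31.7 and 30.5 CPM in EV cells, 28.1 and 26.5 CPM in RelA-dTAD cells, 16.4 and 14.2 CPM in RelA-dTA1 cells and 14.2 and 9.54 CPM in RelA-WT cells. At 0 h it was at 39.8 and 25.3 CPM in EV cells, 38.8 and 27.3 CPM in RelA-dTAD cells, 39.8 and 26.2 CPM in RelA-dTA1 cells and 38.1 and 21.4 CPM in RelA-WT cells. The 3 h libraries of RelA-dTA1 and RelA-WT lay below every 0 h library. Spry1 fell by 1.09 on the log2 scale in RelA-dTA1 cells (SE 0.34, edgeR adjusted p = 0.0296) and by 1.33 in RelA-WT cells (SE 0.35, adjusted p = 0.0101), where 4.87% and 5.74% of all genes were called lower. Without either replicate the change was -0.87 and -1.27 in RelA-dTA1 cells (adjusted p = 0.438 and 0.19) and -1.16 and -1.39 in RelA-WT cells (0.148 and 0.0618). At 0.5 h it had risen with the block by 0.63 in EV cells, 0.53 in RelA-dTAD cells and 0.54 in RelA-WT cells (adjusted p = 0.00454, 0.0265 and 0.0337), and not without it. The 3 h changes in EV cells, -0.05 ± 0.32, and RelA-dTAD cells, -0.27 ± 0.32, did not pass. The 3 h difference from RelA-WT was 1.27 ± 0.48 for EV (adjusted p = 0.209) and 1.06 ± 0.48 for RelA-dTAD (0.414), and passed with the block at 1.29 ± 0.22 (6.72e-05) and 1.08 ± 0.22 (0.000733), where 3.29% and 2.81% of all genes were called higher. It also passed with no filter (adjusted p = 3.79e-05 and 0.00162). The 3 h level was 1.39 ± 0.35 above that of RelA-WT in EV cells (adjusted p = 0.00855) and 1.22 ± 0.35 above it in RelA-dTAD cells (0.0314), where 3.26% and 2.01% of all genes were called higher. Without RelA-WT replicate 2 these were 1.07 and 0.90 (adjusted p = 0.127 and 0.286), and without either RelA-dTAD replicate the second was 1.18 and 1.28 (adjusted p = 0.143 and 0.119).

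At 8 h Spry1 was at 77.3 and 50.7 CPM in EV cells, 81.9 and 64.5 CPM in RelA-dTAD cells, 40.6 and 30.9 CPM in RelA-dTA1 cells and 27.4 and 17.2 CPM in RelA-WT cells. All 4 EV and RelA-dTAD libraries were above the other 4. It rose by 1.02 ± 0.32 in EV cells (edgeR adjusted p = 0.0106) and 1.16 ± 0.32 in RelA-dTAD cells (0.00404), and the changes of 0.13 ± 0.32 in RelA-dTA1 cells and -0.42 ± 0.33 in RelA-WT cells did not pass. With the block the change in RelA-WT cells passed as a fall of 0.41 on the log2 scale (SE 0.15, adjusted p = 0.0266), where 21.7% of all genes were called lower. The difference from RelA-WT was 1.44 ± 0.46 for EV (adjusted p = 0.0312) and 1.59 ± 0.46 for RelA-dTAD (0.0235). With any 1 replicate of the constructs compared left out it was 1.3 to 1.44 for EV (adjusted p 0.0922 to 0.132) and 1.46 to 1.66 for RelA-dTAD (0.0795 to 0.131). The rise itself was 1.00 and 1.01 without either EV replicate (adjusted p = 0.0965 and 0.0938) and 1.08 without RelA-dTAD replicate 2 (0.0842).

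Among the Spred genes, which act on Ras through neurofibromin, Spred1 rose at 8 h by small amounts, though in RelA-WT cells not under every setting. At 8 h it was at 229 and 249 CPM in EV cells, 251 and 269 CPM in RelA-dTAD cells, 209 and 229 CPM in RelA-dTA1 cells and 204 and 186 CPM in RelA-WT cells, while the 8 libraries at 0 h lay between 151 and 164 CPM. Every 8 h library was above every 0 h library. It rose by 0.67 ± 0.08 in EV cells (edgeR adjusted p = 1.63e-07), 0.76 ± 0.08 in RelA-dTAD cells (2.52e-08), 0.43 ± 0.08 in RelA-dTA1 cells (0.000121) and 0.31 ± 0.08 in RelA-WT cells (0.00429). In RelA-WT cells the change was 0.30 with no filter (adjusted p = 0.101) and 0.29 without replicate 1 (0.0665). The rise exceeded that in RelA-WT cells by 0.36 ± 0.11 in EV cells (adjusted p = 0.0239) and 0.45 ± 0.11 in RelA-dTAD cells (0.00701). With any 1 of the 4 replicates left out the EV difference was 0.27 to 0.40 (adjusted p 0.0679 to 0.28). The RelA-dTAD difference was 0.40 to 0.47 without RelA-dTAD replicate 1, RelA-dTAD replicate 2 or RelA-WT replicate 2 (0.0533 to 0.117). With no filter neither passed, at 0.35 and 0.46 (adjusted p = 0.302 and 0.121).

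Spred2, the other broadly expressed Spred gene, was at 82.2 and 84.8 CPM in EV cells, 72.8 and 80.1 CPM in RelA-dTAD cells, 66.2 and 66.6 CPM in RelA-dTA1 cells and 58.1 and 63.8 CPM in RelA-WT cells at 8 h. At 0 h it was at 51.5 and 64.2 CPM in EV cells, 61.8 and 59.9 CPM in RelA-dTAD cells, 59.0 and 59.8 CPM in RelA-dTA1 cells and 67.4 and 66.0 CPM in RelA-WT cells, so the RelA-WT libraries were the highest at 0 h and the lowest at 8 h. It rose by 0.56 ± 0.11 in EV cells (edgeR adjusted p = 0.000229) and 0.34 ± 0.11 in RelA-dTAD cells (0.0158). It was 0.40 without EV replicate 1 (adjusted p = 0.064), and in RelA-dTAD cells 0.24 without replicate 2 (0.255) and 0.34 with no filter (0.0694). It did not pass in RelA-dTA1 cells (0.17 ± 0.11) or RelA-WT cells (-0.12 ± 0.11). The EV rise exceeded the RelA-WT change by 0.69 ± 0.16 (adjusted p = 0.00386), and by 0.51 without EV replicate 1 and 0.58 without RelA-WT replicate 1 (0.124 and 0.0617). For RelA-dTAD the difference was 0.46 ± 0.16 (adjusted p = 0.061, and 0.00579 with the block).

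Spred3, a Spred gene described mainly in brain, was at 27.9 and 48.6 CPM in EV cells, 26.1 and 50.8 CPM in RelA-dTAD cells, 21.0 and 31.9 CPM in RelA-dTA1 cells and 15.4 and 30.2 CPM in RelA-WT cells at 8 h. At 0 h it was at 13.4 and 17.8 CPM in EV cells, 11.5 and 16.4 CPM in RelA-dTAD cells, 16.2 and 20.2 CPM in RelA-dTA1 cells and 14.1 and 22.0 CPM in RelA-WT cells. Among these 4 constructs the EV and RelA-dTAD libraries were the highest at 8 h within each set, but the sets overlapped between constructs. It rose by 1.33 ± 0.41 in EV cells (edgeR adjusted p = 0.00885) and 1.47 ± 0.40 in RelA-dTAD cells (0.00432), and was 1.11 and 1.19 without replicate 2 of the construct (0.136 and 0.132). The difference from RelA-WT, 0.98 ± 0.57 for EV and 1.12 ± 0.57 for RelA-dTAD, did not pass, but did so with the block (adjusted p = 0.000675 and 0.000112) and with no filter (0.0102 and 0.00203). The antisense gene Ggn moved the other way: at 8 h it was at 0.233 and 1.9 CPM in EV cells against 3.87 and 4 CPM at 0 h. These values rest on few reads, 1 and 18 at 8 h against 28 and 50 at 0 h. Its part in the Spred3 values was not tested.

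Etv4, a PEA3-group transcription factor, stayed between 3.88 and 10.1 CPM in the 4 replicated constructs up to 3 h and was highest at 8 h in EV and RelA-dTAD cells. At 8 h it was at 25.1 and 38.2 CPM in EV cells, 21.8 and 41.4 CPM in RelA-dTAD cells, 13.0 and 12.6 CPM in RelA-dTA1 cells and 6.59 and 9.27 CPM in RelA-WT cells. The 8 libraries at 0 h lay between 6.84 and 9.58 CPM. The 8 h libraries fell into 3 ranges that did not overlap, with RelA-dTA1 between the others. Etv4 rose by 2.05 ± 0.27 in EV cells (edgeR adjusted p = 9.25e-07), 2.01 ± 0.26 in RelA-dTAD cells (1.16e-06) and 0.83 ± 0.27 in RelA-dTA1 cells (0.0189), and changed by -0.13 ± 0.28 in RelA-WT cells (0.77). In RelA-dTA1 cells it was 0.74 without replicate 1 and 0.97 without replicate 2 (adjusted p = 0.248 and 0.124). The difference from RelA-WT was 2.18 ± 0.38 for EV (adjusted p = 0.000237) and 2.14 ± 0.38 for RelA-dTAD (0.000428), and both held without any 1 replicate of the constructs compared. In set 1 the gene rests on 23 to 134 reads per library, the fewest of the 8.

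Etv5, its close relative, moved less. At 8 h it was at 45.6 and 56.7 CPM in EV cells, 42.3 and 53.5 CPM in RelA-dTAD cells, 38.0 and 33.7 CPM in RelA-dTA1 cells and 27.0 and 30.7 CPM in RelA-WT cells. At 0 h it was at 30.4 and 34.5 CPM in EV cells, 23.9 and 41.1 CPM in RelA-dTAD cells, 29.9 and 38.0 CPM in RelA-dTA1 cells and 29.7 and 36.1 CPM in RelA-WT cells, so that RelA-WT libraries at 8 h were within the range of the 0 h libraries. It rose by 0.70 ± 0.23 in EV cells (edgeR adjusted p = 0.015) and 0.55 ± 0.23 in RelA-dTAD cells (0.0487). It was 0.71 and 0.64 without EV replicate 1 or 2 (adjusted p = 0.105 and 0.152) and 0.38 without RelA-dTAD replicate 1 (0.293). The difference from RelA-WT was 0.88 ± 0.33 for EV (adjusted p = 0.0657) and 0.74 ± 0.33 for RelA-dTAD (0.155), and passed with the block (0.000525 and 0.00383) and with no filter (0.00621 and 0.0387). At 3 h Etv5 was at 23.0 and 24.4 CPM in RelA-dTA1 cells and 18.4 and 22.2 CPM in RelA-WT cells, below their 0 h libraries. This fall passed with the block, by 0.53 (SE 0.14, adjusted p = 0.00382) in RelA-dTA1 cells and 0.69 (SE 0.15, adjusted p = 0.000546) in RelA-WT cells, where 13.4% and 14.1% of all genes were called lower. Without the block it was 0.51 and 0.68 lower (adjusted p = 0.164 and 0.0541), and it passed with no filter in both (0.0382 and 0.00203) and by DESeq2 in RelA-WT cells (0.0481).

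Counted together, all 8 genes rose at 8 h in EV cells, against 25.6% of all genes called higher there, and all 8 rose in RelA-dTAD cells, against 24.4%. In RelA-dTA1 cells 3 rose (Spry4, Spred1 and Etv4), against 19.4% of all genes, and in RelA-WT cells 1 rose (Spred1), against 15.8%. The median log2 change of the 8 was 1.18 in EV cells, 1.32 in RelA-dTAD cells, 0.43 in RelA-dTA1 cells and -0.07 in RelA-WT cells, while the median of all genes tested lay between -0.03 and -0.02. With the block 5 rose in RelA-dTA1 cells, with Spry2 and Spred3 added, against 26.6% of all genes, and with no filter the RelA-dTA1 count was 5 and the RelA-WT count 0. Leaving out 1 replicate, with all its times, lowered the EV count to 5 without either EV replicate, the RelA-dTAD count to 5 without RelA-dTAD replicate 2 and the RelA-WT count to 0 without RelA-WT replicate 1. Taking all 4 TNF times in 1 test, 8 genes passed in EV cells, 7 in RelA-dTAD cells (all but Spred2), 4 in RelA-dTA1 cells (Spry1, Spry2, Spry4 and Spred1) and 5 in RelA-WT cells (those 4 and Spred2), against 42.7%, 39.4%, 32.9% and 31.2% of all genes. With the block the counts were 8, 8, 7 and 7 in EV, RelA-dTAD, RelA-dTA1 and RelA-WT cells, against 61.8%, 61.7%, 57.6% and 54.6%.

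The 8 h rise was larger in EV than in RelA-WT cells for 6 of the 8 genes (Spry1, Spry2, Spry4, Spred1, Spred2 and Etv4), against 9.67% of all genes by the same interaction test, and for 8 with the block, against 18.3%. It was larger in RelA-dTAD than in RelA-WT cells for 5 (the same without Spred2), against 6.45%, and for 8 with the block, against 14.9%. The EV count was 3 without either EV replicate and 2 without RelA-WT replicate 1, and the RelA-dTAD count was 2 without either RelA-dTAD replicate and 3 without either RelA-WT replicate. These comparisons share the RelA-WT libraries. Between RelA-dTA1 and RelA-WT 0 of 8 differed by edgeR (2 at an unadjusted p under 0.05, 0 by DESeq2), against 0% of all genes, although the differences ran from 0.12 to 0.96 and all were positive. Between RelA-dTAD and EV 0 differed at 8 h (0 unadjusted, 0 by DESeq2), with differences from -0.24 to 0.14, against 0.00732% of all genes called higher. At 8 h the level itself was above that of RelA-WT for 7 genes in EV cells, against 17.2% of all genes, and for 7 in RelA-dTAD cells, against 13.2%, with Spred3 added by the block in both, against 24.9% and 22.1%.

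**Figure D3:**
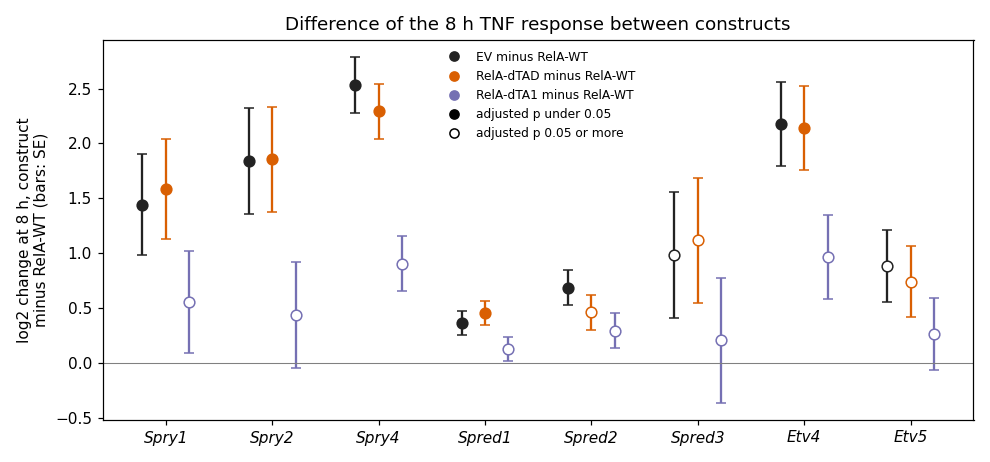
Difference of the log2 change at 8 h of TNF, EV, RelA-dTAD and RelA-dTA1 each minus RelA-WT, for the 8 genes; points are edgeR estimates from 2 libraries per construct and time, bars are 1 SE and filled points have an adjusted p under 0.05 without the block. Spry4 stands at 2.53 for EV and 2.29 for RelA-dTAD, and all RelA-dTA1 points are open, between 0.12 and 0.96.

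The 7 constructs with 1 library per time give values without a replicate check. By log2 change at 8 h in set 1, 5 genes passed 1 in RelA-DB cells, against 11.1% of all genes, and 5 in RelA-dCterm cells, against 11.3%. In the same set the count was 4 in EV cells (10.6% of all genes), 5 in RelA-dTAD cells (10.5%), 1 in RelA-dTA1 cells (7.87%) and 0 in RelA-WT cells (7.33%). The counts in RelA-DB and RelA-dCterm cells were near that in EV cells, but single genes differed: Spry1 reached 46.5 CPM at 8 h in RelA-DB cells, 73.0 CPM in RelA-dCterm cells, 77.3 CPM in EV cells and 27.4 CPM in RelA-WT cells. Etv4 changed by 2.45 in RelA-DB cells and 2.63 in RelA-dCterm cells, above the 1.60 in EV cells of that set. The 0 h values behind these changes were low, at 30 and 23 reads (5.83 and 4.59 CPM), against 59 reads in EV cells. At 8 h the gene was at 32.7 and 29.3 CPM, from 133 and 134 reads, against 25.1 CPM, from 108 reads, in EV cells of that set. Lower 0 h values and higher 8 h values both enter these changes, from 1 library each, and their parts were not tested.

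In set 2 the mutants whose names join a TA2 change with dTA1 had counts near that of EV. Past 1 at 8 h were 5 genes in RelA-TA2_CI-dTA1 cells (8.52% of all genes) and 4 in RelA-TA2_CI_S467A-dTA1 cells (7.41%), against 4 in EV cells (9.77%) and 5 in RelA-dTAD cells (8.85%). In the TA2 mutants named without dTA1 the count was 1 in RelA-TA2_CI_S467A cells (6.82%), 0 in RelA-TA2_CI cells (5.92%) and 0 in RelA-TA2_S467A cells (5.63%), as in RelA-dTA1 cells (6.01%) and RelA-WT cells (5.62%). Spry4 at 8 h gave the order of the constructs: 80.7 CPM in RelA-dTAD cells, 78.8 CPM in EV cells, 61.8 CPM in RelA-TA2_CI-dTA1 cells and 61.6 CPM in RelA-TA2_CI_S467A-dTA1 cells. It was at 30.2 CPM in RelA-TA2_CI_S467A cells, 26.1 CPM in RelA-dTA1 cells, 20.7 CPM in RelA-TA2_CI cells, 20.4 CPM in RelA-TA2_S467A cells and 17.4 CPM in RelA-WT cells. At 0.5 h the same gene was at 31.9 to 34.0 CPM in the 4 constructs that were high at 8 h, 41.1 to 44.7 CPM in RelA-TA2_CI, RelA-dTA1 and RelA-TA2_CI_S467A cells, 66.5 CPM in RelA-TA2_S467A cells and 66.3 CPM in RelA-WT cells. The NF-kB target Nfkbia at 1 h was at 95.1 CPM in RelA-TA2_CI-dTA1 cells, 549 CPM in RelA-TA2_CI cells and 968 CPM in RelA-TA2_S467A cells.

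**Figure D4:**
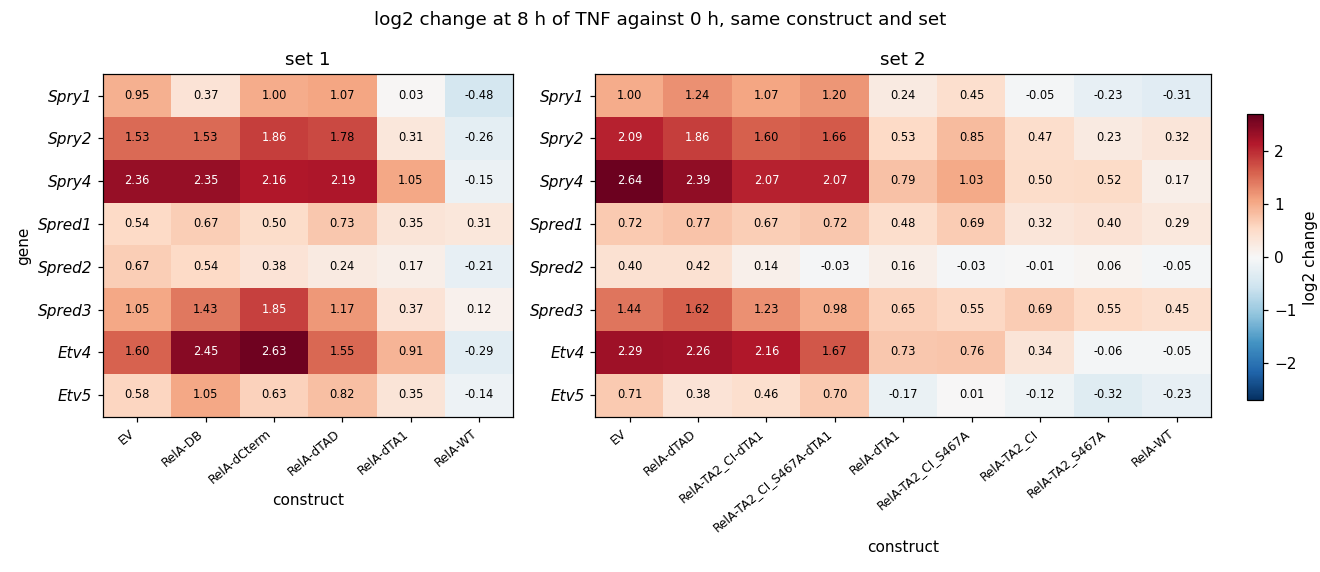
Log2 change at 8 h of TNF against 0 h of the same construct and set for the 8 genes (rows) in each construct (columns), 1 library per cell of the grid, set 1 left and set 2 right; red is higher and blue lower. Spry4 ranges between 2.64 in EV cells of set 2 and -0.15 in RelA-WT cells of set 1.

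Other genes of the pathway were counted by their place in it, from lists made for this comparison. The shares of all genes called higher and lower at 8 h were 25.6% and 23.1% in EV cells and 15.8% and 11.6% in RelA-WT cells. Of 20 ligand genes tested 13 rose and 1 fell at 8 h in EV cells (median log2 change 1.21), and 8 rose and 1 fell in RelA-WT cells. Hbegf, an EGF receptor ligand, reached 615 ± 39.8 CPM in EV cells, 412 ± 46.3 CPM in RelA-dTAD cells, 65.1 ± 16.1 CPM in RelA-dTA1 cells and 35.8 ± 1.05 CPM in RelA-WT cells at 8 h (SD, n = 2 each). Its rise exceeded that in RelA-WT cells by 4.04 ± 0.28 in EV cells (edgeR adjusted p = 6.22e-10). The same difference was 6.18 ± 0.92 for Areg and 2.85 ± 0.40 for Ereg, both EGF receptor ligands (adjusted p = 3.59e-05 and 1.68e-05), and 1.69 ± 0.56 for Pdgfb (0.0372). Of 11 receptor genes 1 rose (Igf1r) and 4 fell in EV cells, among them Pdgfrb, which was at 126 ± 12.5 CPM in EV cells and 331 ± 23.4 CPM in RelA-WT cells at 8 h. Of 22 genes between receptor and ERK 9 rose and 5 fell in EV cells, the falls near the 23.1% of all genes, with a median of 0.15, against -0.02 for all genes.

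Of 18 other negative regulators 11 rose and 1 fell at 8 h in EV cells (median 0.84), against 25.6% and 23.1% of all genes. In RelA-WT cells 3 rose and 1 fell, the rises being near the 15.8% of all genes. Dusp6, the ERK phosphatase of the cytoplasm, was at 152 ± 5.3 CPM in EV cells, 117 ± 9.9 CPM in RelA-dTAD cells, 38.1 ± 3.07 CPM in RelA-dTA1 cells and 24.4 ± 0.472 CPM in RelA-WT cells (SD, n = 2 each). The rise in EV cells exceeded that in RelA-WT cells by 2.91 ± 0.23 for Dusp6 (edgeR adjusted p = 5.57e-09), 3.56 ± 0.38 for Dusp5 and 4.08 ± 0.43 for Dusp4, both nuclear ERK phosphatases, and 2.90 ± 0.23 for the EGF receptor inhibitor Errfi1. The list of 21 other output genes was mixed and also held transcription factors such as Gabpa and Cic, so it is no panel of ERK-induced genes alone. Of these 21 genes 15 rose and 2 fell in EV cells (median 1.82), and 11 rose and 1 fell in RelA-WT cells. The change was larger in EV than in RelA-WT cells for 13 and smaller for 1, against 9.67% and 7.9% of all genes. Examples are Fosl1, an AP-1 subunit, and Plaur, the urokinase receptor, with differences of 2.78 ± 0.29 and 3.47 ± 0.23. For Epha2 and Ier3 the difference was 3.03 ± 0.48 and 1.49 ± 0.51. Egr1, an immediate early gene, showed no detected difference at 0.5 h: it rose by 3.24 ± 0.36 in EV cells and 3.21 ± 0.36 in RelA-WT cells (difference 0.03 ± 0.47). At 8 h it was at 502 and 623 CPM in EV cells, 425 and 621 CPM in RelA-dTAD cells, 264 and 223 CPM in RelA-dTA1 cells and 162 and 146 CPM in RelA-WT cells.

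The genes most like each member over the 40 libraries of the replicated constructs were found by the Pearson correlation of log2 CPM centred within each set, among 10679 genes. The libraries share time points and constructs, so these values describe and do not test. Spry2 was most like Dusp6 (r = 0.937), Arc (0.926) and Ccn1 (0.908), and Spry4 was most like Dusp5 (0.929), Zfp36l2 (0.908) and Phlda1 (0.884). Spry1 was most like Syde2 (0.908), Apln (0.88) and Ccn2 (0.875). Among the Spred genes, Spred1 was most like Timp1 (0.96), Tm4sf1 (0.959) and Tnc (0.951), Spred2 like Palld (0.817), Ets1 (0.787) and Epha2 (0.784), and Spred3 like Slc25a37 (0.921), Zranb2 (0.878) and Spred1 (0.877). Etv4 was most like Hmga2 (0.937), Enah (0.927) and Fgd3 (0.927), and Etv5 like Metrnl (0.89), Lbh (0.881) and Apln (0.877). Between members r ran from 0.249 for Spry1 and Spred3 to 0.877 for Spred1 and Spred3.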

How the data were processed

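The authors deposited whole-number read counts per gene for 75 RNA-seq libraries. Per the submitters' processing notes, cutadapt 1.9.1, STAR, featureCounts 1.5.0 and DESeq2 were used with the mm10 build. The labels name a stranded kit. Whether featureCounts used strand is not given in the sources used here. CPM values were computed from the deposited counts with TMM factors over the 75 libraries, and log2 values with a prior count of 2. EdgeR 4.0.16 in R 4.3.3 fitted the 40 libraries of the 4 replicated constructs (quasi-likelihood, 20 residual degrees of freedom) over 13665 genes. Calls had a Benjamini-Hochberg adjusted p under 0.05. DESeq2 1.42.0, other normalization, no filter, each replicate left out and the set as a block were alternatives. The fit with no filter kept every gene with a read and did not use the set. It left the sizes nearly unchanged (largest median shift over genes 0.0201 on the log2 scale). Its gained and lost calls thus come mainly from the estimated spread and are no separate check. Same-numbered libraries deviated together (r 0.357 to 0.668, median 0.526, over 190 pairs of groups), so the set as a block treats them as paired. The main fit, whose calls are given unless the block is named, does not use this pairing. For TNF responses and their differences the block added 35 calls, and it lost 0. Constructs with 1 library were described by a log2 change past 1, with no test. The script was tested on simulated data. Genes of the pathway lists with 8 h values were named from those with the largest called 8 h changes in EV cells, up to 4 a list. Not all such receptor and cascade genes are named. Rela, Nfkbia and Egr1 are named as readouts, and for each member the 3 genes most correlated with it at a mean CPM of at least 5. The members and lists were chosen with earlier results of these data known.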

Additional observations from a re-analysis of the deposited data

Results flagged for a closer look

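The TNF response at 8 h differed between constructs for 11 combinations of gene and construct, by the test of the difference itself (edgeR, log2 scale, adjusted over all genes). EV cells exceeded RelA-WT cells by 1.44 for Spry1, 1.84 for Spry2, 2.53 for Spry4, 0.36 for Spred1, 0.69 for Spred2 and 2.18 for Etv4. RelA-dTAD cells exceeded RelA-WT cells by 1.59 for Spry1, 1.85 for Spry2, 2.29 for Spry4, 0.45 for Spred1 and 2.14 for Etv4. Both comparisons use the same RelA-WT libraries.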

How the results depend on the processing

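The 96 single results compared were the 61 called without the block and 35 TNF responses or differences called only with it. None changed direction under any alternative run. They were chosen by these calls and refitted on the same libraries, so a change of direction was unlikely from the start. Results that stayed called and results that stayed uncalled both count as unchanged here. With DESeq2's size factors 95 were unchanged and 1 gained a call, and with DESeq2 95 were unchanged and 1 gained a call. With no filter 70 were unchanged, 20 gained a call and 6 lost it. With the set as a block 61 kept their call and 35 gained it. The replicate block lost no call. With 1 replicate left out at a time, 221 of the values were unchanged and 65 lost their call. For members higher at 0.5 h (1 in each construct) the block gave 3 in EV, 3 in RelA-dTAD, 2 in RelA-dTA1 and 3 in RelA-WT cells. With the block 0.703%, 0.834%, 1.02% and 1.13% of all genes were called higher there. No filter gave 2 in each. Shares of all genes were not computed with no filter, with library totals or with a replicate left out. Leaving out 1 replicate gave 0 to 1 in EV and in RelA-dTAD cells. For members lower at 3 h in RelA-WT cells (1) the block, no filter and DESeq2 each gave 2, and leaving out a replicate gave 0. At 8 h leaving out a replicate gave 5 in EV cells, 5 to 7 in RelA-dTAD cells and 0 to 1 in RelA-WT cells. The RelA-dTA1 count of 3 was 5 with the block and 5 with no filter, and the RelA-WT count of 1 was 0 with no filter. Of all genes 19.4% were called higher at 8 h in RelA-dTA1 cells without the block and 26.6% with it. In RelA-WT cells 15.8% were called higher at 8 h without the block. At 3 h in RelA-WT cells 5.74% were called lower without the block and 14.1% with it. Of the differences from RelA-WT at 8 h, the EV count of 6 ran from 2 to 4 with 1 replicate left out, and the RelA-dTAD count of 5 from 2 to 3 and was 8 with the block. Of all genes 9.67% (EV) and 6.45% (RelA-dTAD) were called higher for these differences without the block, and 18.3% and 14.9% with it. The level at 8 h in RelA-dTA1 cells (0 members) gave 2 with the block and 2 with no filter, and its share of all genes is not given here. By library totals in place of TMM, members past 1 at 8 h were 0 in RelA-dTA1 and 3 in RelA-dTAD cells of set 1 and 0 in RelA-TA2_CI_S467A cells. With the block, receptor genes higher at 8 h in EV cells were 2. By the difference from RelA-WT, receptor genes called higher with the block were 2 and cascade genes 7, against 18.3% of all genes. The receptor count is near that share. The cause was not tested. Set 1 has fewer reads per library, which limits the precision for Etv4, Spry4 and Spred3.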
